A study of Mus musculus with 11 samples.

Results

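The proteasome genes described here are the protein-coding mouse genes whose symbols begin with Psma, Psmb, Psmc, Psmd, Psme, Psmf or Psmg followed by a digit. There were 50 of them among the 32035 genes of the liver RNA-seq tables, and 49 passed the filter on low counts in the comparison of the strains, among 13380 genes tested. The rule also took in Psmc3ip, a meiotic recombination factor that is no proteasome subunit, and it left out subunits and factors with other symbols, such as Adrm1, Sem1 and Pomp. RNA came from the livers of 11 female mice, with 1 library per mouse, selected for poly-A tails and sequenced as single-end reads. Both strains are conplastic, with the nuclear genome of C57BL/6J and the mtDNA of another inbred strain. C57BL/6J-mtALR/J (B6-mtALR) carries the complex I variant m.4738C>A in mt-Nd2, and its 7 mice comprised 4 of 3 months (replicates 4 to 7) and 3 of 5 months (replicates 1 to 3). C57BL/6J-mtBPL/J (B6-mtBPL) carries m.11902T>C in mt-Nd5, and its 4 mice comprised 2 of 3 months (replicates 1 and 2) and 2 of 4 months (replicates 3 and 4). No mouse with the mtDNA of C57BL/6J entered the comparisons, so each value below sets one mtDNA variant against the other. Groups were taken from the strain fields, although the RNA extraction text of the submitters mentions C57BL/6J and C57BL/6J-mtAKR/J instead, and counts per transcript cannot check which mtDNA a mouse carried.

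The proteasome is the protease that degrades ubiquitin-tagged proteins in the cytosol and nucleus. Its 20S core is a barrel of alpha and beta rings in which 3 beta subunits, encoded by Psmb5, Psmb6 and Psmb7, carry the active sites. The 19S particle caps the barrel, and its ATPases (Psmc genes) unfold substrates while its non-ATPase subunits (Psmd genes) bind and remove ubiquitin. Interferons induce the alternative active subunits encoded by Psmb8, Psmb9 and Psmb10, which form the immunoproteasome, and the PA28 activator subunits encoded by Psme1 and Psme2. In hepatocytes and other cells, the transcription factor encoded by Nfe2l1 raises the proteasome genes together when proteasome activity is insufficient.

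Levels differed with the place of the product in the particle. Levels between genes are given as TPM (transcripts per 1000000 transcripts), which are scaled for transcript length. The 14 constitutive 20S genes had mean levels between 70.7 TPM (Psma5) and 210.8 TPM (Psma3), and the 17 genes of the 19S particle lay between 46.7 TPM (Psmd14, which encodes the deubiquitinase) and 104.9 TPM (Psmc3, an ATPase). The highest mean level was thus 2.98 times the lowest among the 20S genes and 2.25 times among the 19S genes, with median levels of 155.4 and 71.4 TPM. Levels of the assembly factors were lower. Psmg1 to Psmg4, which encode the chaperones that help to build the alpha ring, lay between 15.1 and 25.2 TPM, and Psmd10, Psmd5 and Psmd9, chaperones of the 19S base, lay at 11.7, 25.3 and 36 TPM. Psmf1, which encodes the 20S regulator PI31, was at 21.2 ± 2.28 TPM (SD, n = 11).

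The immunoproteasome genes were transcribed in every liver, below the constitutive genes they can replace. Psmb8 was at 55 ± 8.38 TPM, Psmb10 at 43.5 ± 8.12 TPM and Psmb9 at 28.1 ± 6.31 TPM (SD, n = 11), against 131.9 ± 10, 158.7 ± 14.1 and 204.5 ± 20.8 TPM for the constitutive counterparts Psmb5, Psmb7 and Psmb6. PA28 genes stood higher, with Psme1 at 148.0 ± 19.5 TPM and Psme2 at 128.8 ± 13.1 TPM. Psme3, the nuclear PA28 gamma gene, was at 32.2 ± 5.94 TPM and Psme4, the PA200 gene, at 25.7 ± 3.44 TPM. Psme3 was above Psme4 in every mouse but B6-mtALR replicate 7.

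A few members were close to absent. Psma8, the testis-specific alpha subunit gene, was at 0.568 ± 0.192 TPM and Psmc3ip at 0.655 ± 0.189 TPM. Psmb11, the thymoproteasome beta subunit gene of the thymic cortex, had 8, 5, 3, 5, 2, 3 and 2 reads in B6-mtALR replicates 1 to 7 and 3, 3, 1 and 1 reads in B6-mtBPL replicates 1 to 4, and it did not pass the filter. Psme2b was at 2 ± 1.04 TPM, and 78.4% of the 31-base sequences in its transcripts also occurred in transcripts of other genes, chiefly Psme2, so its reads could not be assigned with certainty. Such sharing also touched Psmb5 (67.8%), Psma5 (58.4%), Psme2 (33.5%), Psmc1 (29.1%) and Psmd2 (27.3%), whose values are uncertain to that extent. Psma3, Psmb3, Psma4 and Psmd11 shared between 12.8% and 19.3%.

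**Figure D1:**
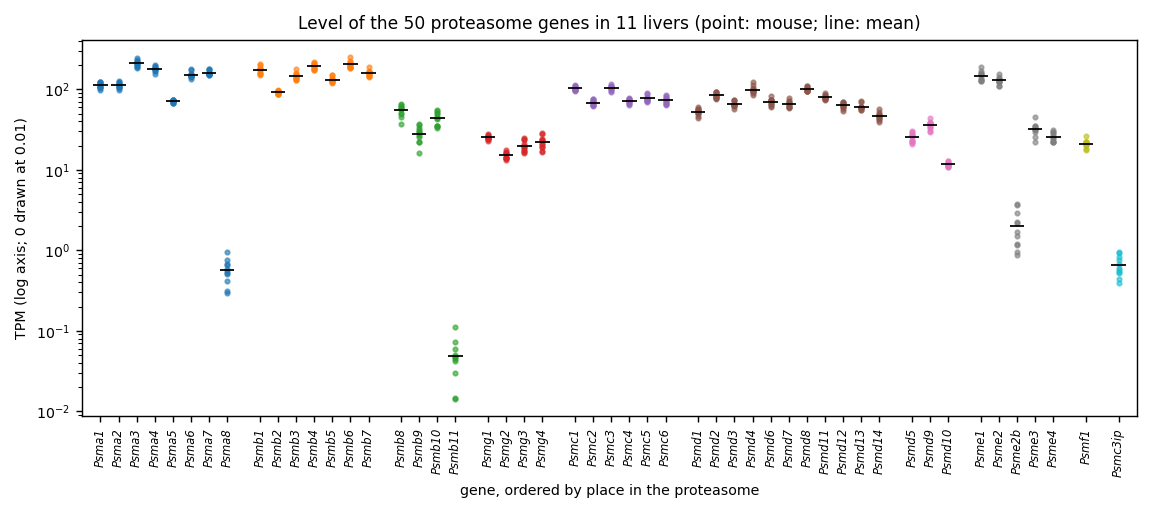
Level of each proteasome gene in each of the 11 livers (TPM, log axis), ordered by place in the proteasome, with the mean as a line. The 20S and 19S genes form a band between 46.7 and 210.8 TPM on average, the immunoproteasome beta genes lie below the constitutive beta genes, and Psma8, Psmb11, Psme2b and Psmc3ip lie far below the rest.

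The first comparison asked how the proteasome genes differed between the strains at 3 to 4 months, in 8 mice with age and strain in the model. The 20S and 19S genes had higher fitted levels in B6-mtALR livers, by small amounts, while the immunoproteasome beta genes did not follow them, and no proteasome gene passed the test. None of the B6-mtALR mice of this comparison was 4 months old, so the strain term set all 4 of them against the 2 B6-mtBPL mice of 3 months, and the 2 of 4 months added to the estimate of the spread. In the quasi-likelihood test of edgeR with Benjamini-Hochberg adjustment over all genes, 0 of the 49 members had an adjusted p under 0.05, whereas 0.934% of all genes were called higher and 1.44% lower in B6-mtALR. The lowest adjusted p among the members was 0.052 (Psmb1). At an unadjusted p under 0.05, 21 of the 49 members were higher, against 10.2% of all genes, and 0 were lower, against 11.1%. Shares over all genes here are not matched for transcript length. Further on, shares by length are given for positive values and, over all genes only, for an unadjusted p under 0.05. The 21 members were not split by length. No share by length is given for calls at an adjusted p or for groups of mice that do not overlap. DESeq2 called 9 members higher (4.1% of all genes) and limma-trend called 1, Psmb1 (0.919%). Without B6-mtALR replicate 6, edgeR called 3 higher, Psma1, Psmb1 and Psmb7 (1.67%).

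The 9 members called by DESeq2 were Psma1, Psma2, Psma4, Psmb1, Psmb7, Psmc6, Psmd5, Psmd6 and Psmg3. Their adjusted p-values in DESeq2 ran from 0.0019 (Psmb1) to 0.038 (Psmd5), and in edgeR the same 9 genes had adjusted p-values from 0.052 to 0.096.

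The median log2 fold change of the 49 members was 0.23 in favour of B6-mtALR, against -0.0034 for all genes tested. Of the members, 44 had a positive value, as did 49.6% of all genes. In CPM (counts per 1000000 counts of a library, with TMM scaling), all 4 B6-mtALR mice of 3 months lay above all 4 B6-mtBPL mice for 8 members, namely Psma1, Psma2, Psma4, Psmb1, Psmd5, Psmd7, Psmd12 and Psmg2, against 5.67% of all genes. For 0 members did all 4 lie below, against 6.41% of all genes. With the mice of 5 months included, only Psmd7 separated all 7 B6-mtALR mice from all 4 B6-mtBPL mice, against 1.4% of all genes. Members are not independent of each other, and the counts above describe the list without a test of it.

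**Figure D2:**
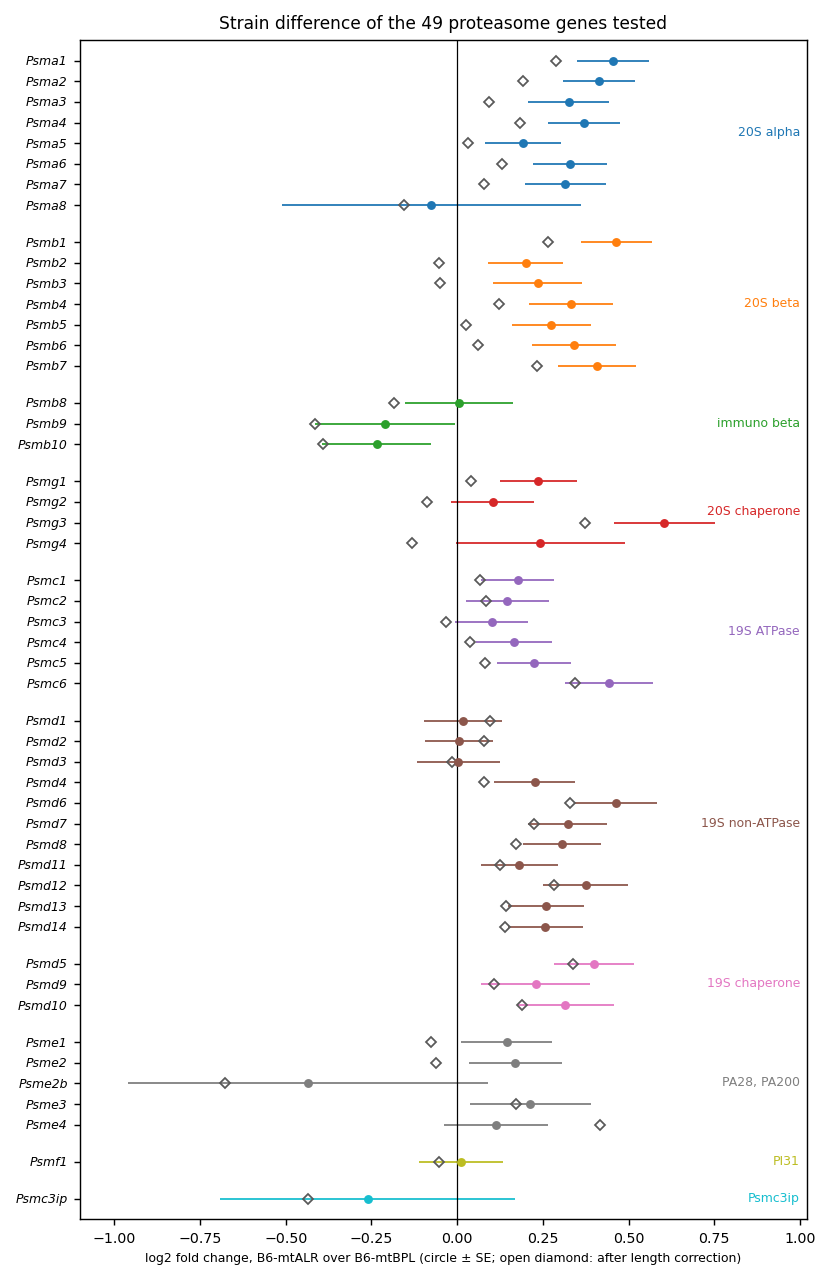
Fitted log2 fold change of B6-mtALR over B6-mtBPL livers for the 49 proteasome genes tested, as circles with the SE, grouped by place in the proteasome, with the value after the correction for transcript length as an open diamond. The circles of the 14 constitutive 20S genes all lie above 0, between 0.19 and 0.46, those of Psmb9 and Psmb10 lie below 0, and most diamonds lie closer to 0 than their circles.

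Among the alpha ring genes, Psma1 (chr7:114264606-114276118 in GRCm38) had the highest difference. Its CPM was 96.6, 89.5, 87 and 97.6 in B6-mtALR replicates 4 to 7, 69.5 and 65.2 in the B6-mtBPL mice of 3 months and 77.9 and 81.5 in those of 4 months. The strains did not overlap at 3 to 4 months, and the fitted log2 fold change was 0.45 ± 0.10 (SE, adjusted p = 0.056 by edgeR). However, the B6-mtALR mice of 5 months reached down to 79.9 CPM, below one of the B6-mtBPL mice of 4 months. The other 6 alpha genes of the constitutive core had log2 fold changes from 0.19 (Psma5) to 0.41 (Psma2). Psma8, at the low counts given above, was at -0.075 ± 0.44 on the log2 scale.

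Of the beta ring genes, Psmb1 (non-catalytic, chr17:15475021-15499751) stood closest to the threshold. It measured 122.2, 126.8, 110.1 and 121.0 CPM in the B6-mtALR mice of 3 months against 88.1 and 85.1 CPM and 107.7 and 102.0 CPM in the B6-mtBPL mice of 3 and 4 months, a log2 fold change of 0.46 ± 0.10 (edgeR adjusted p = 0.052). Every B6-mtALR mouse of 3 months thus exceeded every B6-mtBPL mouse, the nearest being 110.1 and 107.7 CPM. Psmb2 had the smallest difference of the ring, 0.20 ± 0.11 (adjusted p = 0.32), with overlapping values of 48, 50.5, 42.9 and 46.7 CPM against 42.1 and 39.4 CPM and 45.1 and 48 CPM.

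The catalytic genes lay between these. Psmb7, which encodes the trypsin-like beta 2 subunit, measured 129.5, 132.4, 109.8 and 127.1 CPM in B6-mtALR replicates 4 to 7, 91.3 and 95.9 CPM in B6-mtBPL mice of 3 months and 102.4 and 114.4 CPM in those of 4 months. Its log2 fold change was 0.41 ± 0.11 (adjusted p = 0.086), and only B6-mtALR replicate 6 fell within the range of B6-mtBPL. Psmb6, which encodes the caspase-like beta 1 subunit, was at 95 ± 10.9 CPM in the B6-mtALR mice of 3 months and 81.4 ± 8.04 CPM in B6-mtBPL (SD, n = 4 each), with a log2 fold change of 0.34 ± 0.12 (adjusted p = 0.15). Psmb5, which encodes the chymotrypsin-like beta 5 subunit, was at 69.9 ± 6.56 against 61.2 ± 4.58 CPM (log2 fold change 0.27 ± 0.12, adjusted p = 0.21). Both overlapped between the strains.

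The immunoproteasome counterparts showed another order of the mice. Psmb8 measured 37.1, 42.2, 29.5 and 44.3 CPM in B6-mtALR replicates 4 to 7 and 39.4 and 36.4 CPM and 37.4 and 33.4 CPM in the younger and older B6-mtBPL mice, with a log2 fold change of 0.0051 ± 0.16 (adjusted p = 0.99). Psmb9 measured 16.9, 22, 13.3 and 19.8 CPM against 20.5 and 20.9 CPM and 20.3 and 14 CPM (-0.21 ± 0.20, adjusted p = 0.58). Psmb10 measured 30.9, 39.8, 26.9 and 37.1 CPM against 39.9 and 38.9 CPM and 34.6 and 28.9 CPM (-0.24 ± 0.16, adjusted p = 0.42). All 3 overlapped between the strains, and the group means of each differed by less than the SD within a strain. Without the age term, the log2 fold changes of Psmb8, Psmb9 and Psmb10 were 0.058, -0.075 and -0.084. With all 11 mice and age in the model, they were 0.065, -0.073 and -0.027. On the TPM scale, Psmb9 amounted to 13.4% ± 1.68 of Psmb6 in the B6-mtALR mice of 3 months and to 15.9% ± 4.32 in B6-mtBPL (SD, n = 4 each), Psmb8 to 40.6% ± 2.98 and 45.6% ± 5.16 of Psmb5, and Psmb10 to 24.1% ± 2.88 and 32.2% ± 7.34 of Psmb7. The ranges of each ratio overlapped between the strains.

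**Figure D3:**
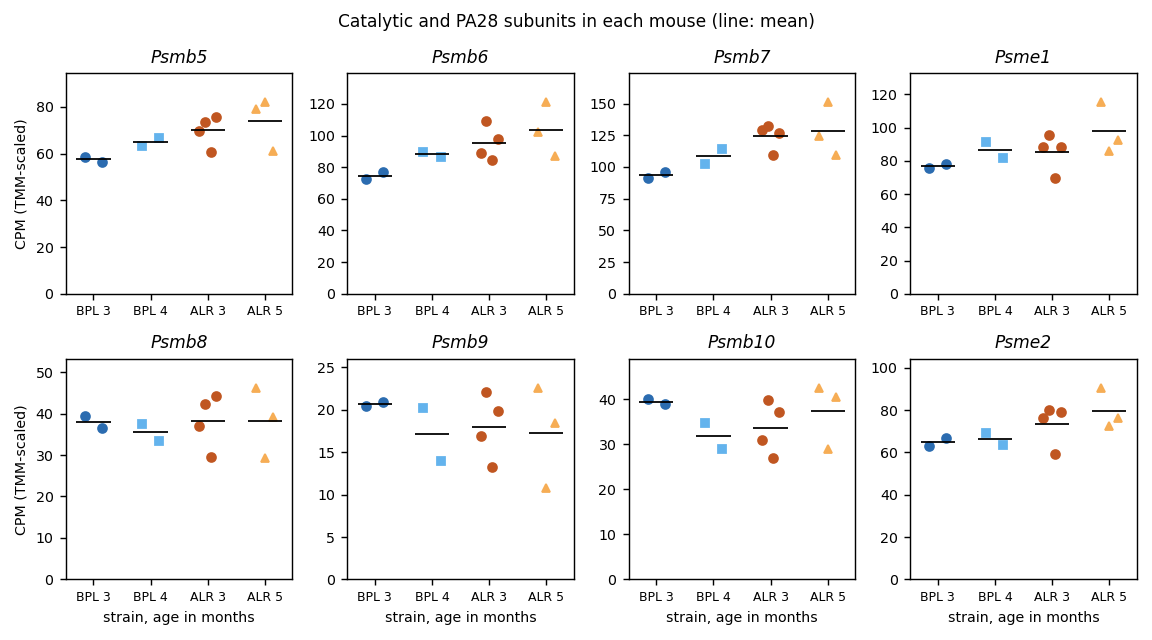
TMM-scaled CPM of the constitutive catalytic genes, their immunoproteasome counterparts and both interferon-induced PA28 genes in each mouse, by strain (BPL, ALR) and age in months, with the group mean as a line and axes from 0. Psmb7 lies at 91.3 and 95.9 CPM in the B6-mtBPL mice of 3 months and at 109.8 to 132.4 CPM in the B6-mtALR mice of that age, whereas Psmb8, Psmb9 and Psmb10 overlap between the groups.

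The genes of the interferon-induced PA28 activator, Psme1 and Psme2, are neighbours on chromosome 14, and both overlapped between the strains. Psme1 was at 88.4, 95.4, 69.9 and 88.6 CPM in the B6-mtALR mice of 3 months against 76 and 78.2 CPM and 91.4 and 81.6 CPM in B6-mtBPL (0.14 ± 0.13, adjusted p = 0.55), and Psme2 had a log2 fold change of 0.17 ± 0.13 (adjusted p = 0.49). Psme3 measured 48.1, 48.9, 56.5 and 36 CPM against 43.9 and 37.6 CPM and 38.5 and 44.7 CPM (0.21 ± 0.18, adjusted p = 0.51). Psme4, which has the longest transcripts of the members with a mean length of 6168 bases, measured 134.6, 109.4, 137.0 and 117.9 CPM against 115.2 and 114.6 CPM and 98.4 and 135.5 CPM (0.11 ± 0.15, adjusted p = 0.7). None of the PA28 and PA200 genes separated the strains.

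The assembly chaperones held the largest difference of the list. Psmg3 measured 10.9, 13.2, 12.4 and 12.8 CPM in B6-mtALR replicates 4 to 7, 7.66 and 8.49 CPM in the B6-mtBPL mice of 3 months and 11.5 and 9.36 CPM in those of 4 months, with a log2 fold change of 0.60 ± 0.15 (adjusted p = 0.065). Its B6-mtBPL replicate 3 lay above the lowest B6-mtALR mouse, so the groups overlapped. Psmg1 was at 0.24 ± 0.11 (adjusted p = 0.26) and Psmg4 at 0.24 ± 0.25 (adjusted p = 0.6). Psmg2 separated the mice of 3 months in B6-mtALR from B6-mtBPL, at 10.1, 9.95, 10.2 and 11.1 CPM against 9.5 and 9.61 CPM and 9.16 and 9.19 CPM, yet its log2 fold change was only 0.10 ± 0.12 (adjusted p = 0.65).

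In the 19S particle, the differences varied between subunits. Of the ATPase genes, Psmc6 had the highest log2 fold change, 0.44 ± 0.13 (adjusted p = 0.093), with 92.3, 74.1, 83.7 and 76.2 CPM in the B6-mtALR mice of 3 months and 61.2 and 58.2 CPM and 70.7 and 82.7 CPM in the B6-mtBPL mice of 3 and 4 months. Psmc3 had the lowest, 0.10 ± 0.11 (adjusted p = 0.61), with 95.4 ± 7.11 against 92.3 ± 4.39 CPM (SD, n = 4 each). Among the 11 non-ATPase genes, Psmd6 had the highest value, 0.46 ± 0.12 (adjusted p = 0.078), and measured 71.8, 68.5, 69.8 and 64.3 CPM against 52.1 and 47.1 CPM and 52.9 and 64.9 CPM. Psmd3 had the lowest, 0.0032 ± 0.12 (adjusted p = 0.99), with 96.1 ± 10.3 against 96.7 ± 4.3 CPM. Psmd1 and Psmd2, which encode the large scaffold subunits, stood as close to 0, at 0.016 ± 0.11 and 0.0047 ± 0.10. Psmd1, Psmd2 and Psmd3 were also the members of the 19S particle with the longest transcripts.

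Transcript length moved with these values and has to be read beside them. In the B6-mtBPL mice, and most in both mice of 3 months, counts leaned towards long transcripts. The slope of a mouse's log2 CPM deviation on log10 transcript length was 0.40 and 0.49 in the B6-mtBPL mice of 3 months, 0.082 and 0.21 in those of 4 months, -0.42 to 0.16 in the B6-mtALR mice of 3 months and -0.40 to 0.16 in those of 5 months. The proteasome genes are short, with a median transcript length of 1270 bases against 2388 bases over all genes tested. Among genes of under 1000 bases, the median was 0.26 for the 12 members and 0.28 for all 1331 genes tested. From 1000 to 1500 bases, the medians were 0.24 for 23 members and 0.16 for 1860 genes, and from 1500 to 2000 bases they were 0.20 for 10 members and 0.089 for 2075 genes. The 4 members of 2000 bases or more had a median of 0.011, against -0.12 for 8114 genes. From the shortest to the longest of these ranges, 81.1%, 75%, 63.6% and 35% of all genes had a positive value. Of the members, 11 of 12, 20 of 23, 9 of 10 and 4 of 4 did. Higher at an unadjusted p under 0.05 were 36.5%, 19%, 10.7% and 3.71% of all genes in these ranges.

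**Figure D4:**
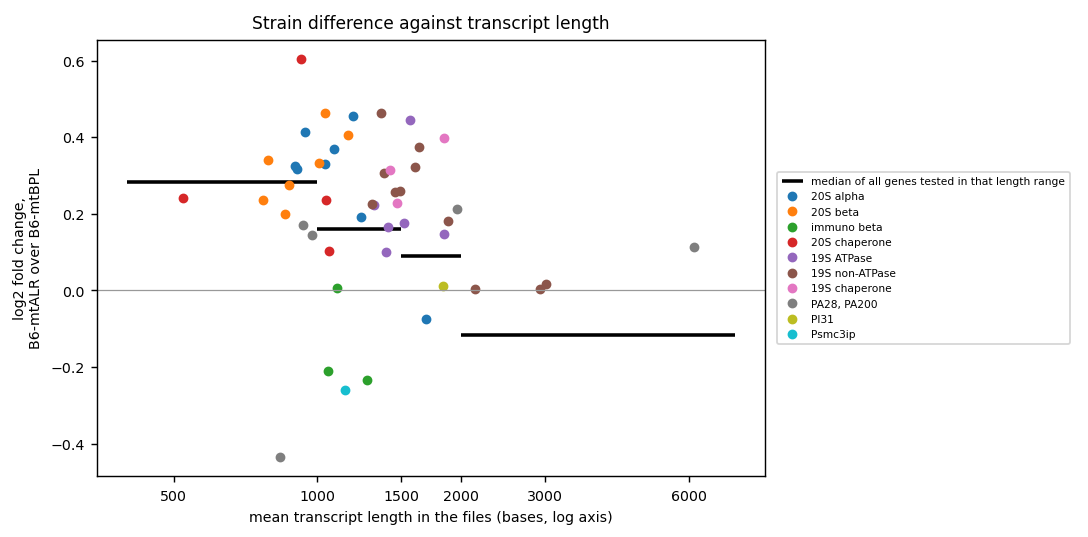
Strain log2 fold change of each member (points, coloured by place in the proteasome) against its mean transcript length in bases (log axis), with the median of all genes tested in 4 length ranges as black lines. The medians of all genes descend from 0.28 below 1000 bases to -0.12 from 2000 bases up, and 12 members lie in the shortest range and 4 in the longest.

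After a correction that removed each mouse's own length trend, the median of the 49 members was 0.081, and 34 of them were positive, as were 50.9% of all genes. At an unadjusted p under 0.05, 9 members were then higher, against 7.85% of all genes, and 2 were lower, Psmb9 and Psmb10, against 7.13%. With the correction 0 members passed the adjusted threshold, and of all genes 0.0224% were called higher and 0.0598% lower. The 14 constitutive 20S genes had a median of 0.33 without and 0.11 with the correction, and the 17 genes of the 19S particle had medians of 0.22 and 0.095. Psmc6 kept 0.34 (edgeR adjusted p = 0.28), Psmd5 0.34, Psmd6 0.33 and Psmg3 0.37, whereas Psmb5 was left with 0.026 and Psmb2 with -0.052. Psme4 moved the other way, from 0.11 to 0.42 (adjusted p = 0.18), and Psmb9 and Psmb10 went to -0.42 and -0.39 (adjusted p = 0.3 and 0.23). On the deposited TPM scale, the summed level of the 14 constitutive 20S genes ran from 2048 to 2146 TPM in the B6-mtALR mice of 3 months and from 1910 to 2111 TPM in B6-mtBPL, and that of the 17 genes of the 19S particle from 1240 to 1312 and from 1248 to 1323 TPM.

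In CPM without the length correction, the 20S genes moved up and down together from mouse to mouse, within strains as well as between them. Relative to each gene's mean over the 11 mice, all 14 constitutive 20S genes were above it in B6-mtALR replicates 2 and 7, and 13 of 14 were above it in replicates 1, 4 and 5. By contrast, 0 of 14 were above it in B6-mtALR replicate 3 and 3 of 14 in replicate 6. In B6-mtBPL, 0 of 14 were above it in both mice of 3 months, and 2 and 4 of 14 in those of 4 months. The median deviation of these 14 genes ranged from -0.30 in B6-mtBPL replicate 2 to 0.27 in B6-mtALR replicate 2 on the log2 scale. The genes of the 19S particle had the same lowest and highest mouse, with median deviations of -0.23 and 0.22. B6-mtALR replicates 3 and 6, the low mice of their strain, were also its only mice with positive length slopes (0.16 each). The slopes were -0.40, -0.40 and -0.42 in B6-mtALR replicates 1, 2 and 5, and -0.077 and -0.20 in replicates 4 and 7. In B6-mtBPL they were 0.40 and 0.49 at 3 months and 0.082 and 0.21 at 4 months. No such counts are given for other genes of like length, and the part of length in these deviations was not tested. Within B6-mtALR, 3 months of age thus held both 1357 CPM (replicate 5) and 1172 CPM (replicate 6) of summed 20S counts, and the lower value lay under the 1205 CPM of B6-mtBPL replicate 4.

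**Figure D5:**
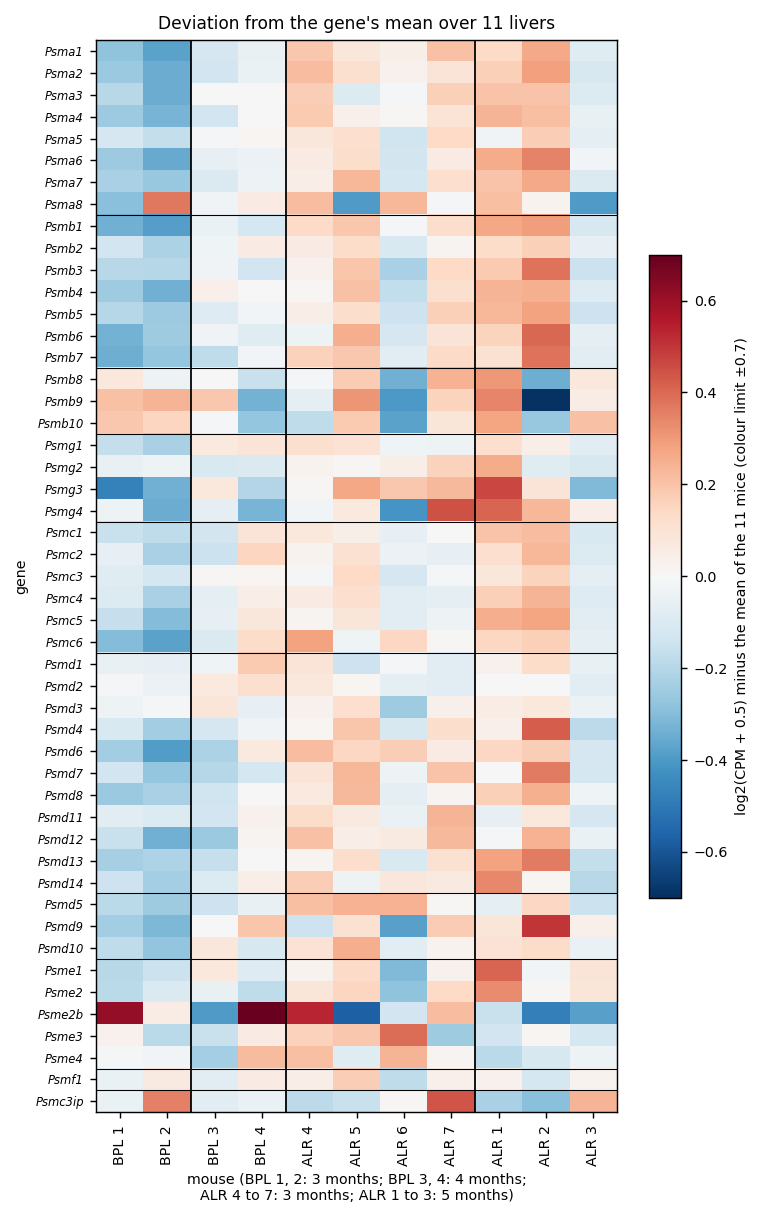
Deviation of each tested proteasome gene from its own mean over the 11 livers, in log2(CPM + 0.5), with mice grouped by strain and age and genes by place in the proteasome (colour limits ±0.7). Most 20S and 19S rows are blue in both B6-mtBPL mice of 3 months and in B6-mtALR replicate 3 and red in B6-mtALR replicates 1 and 2, while the rows of Psmb8, Psmb9 and Psmb10 are blue in B6-mtALR replicates 2 and 6 and in B6-mtBPL replicate 4.

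The interferon-induced members split from the core in some mice and moved with it in others. In B6-mtALR replicate 2, where the constitutive 20S genes were highest, Psmb9 was lowest of all mice at 10.8 CPM, against 18.4 and 22.6 CPM in the other mice of 5 months, and Psmb8 was lowest as well, at 29.3 CPM. The 5 genes Psmb8, Psmb9, Psmb10, Psme1 and Psme2 were all below their means in B6-mtALR replicate 6 and B6-mtBPL replicate 4 and all above them in B6-mtALR replicates 1, 3, 5 and 7. Of the 14 constitutive 20S genes, 13, 13 and 14 were also above their means in B6-mtALR replicates 1, 5 and 7. In B6-mtALR replicate 6 and B6-mtBPL replicate 4, 3 and 4 of the 14 were above. In B6-mtALR replicate 3, by contrast, 0 of the 14 were above. In B6-mtALR replicate 2, Psmb9 amounted to 6.53% of Psmb6 on the TPM scale, and over the 11 mice this ratio reached 20.01% (B6-mtBPL replicate 1). Tap1, the peptide transporter gene that lies head to head with Psmb9 on chromosome 17, measured 26, 16.6 and 19.5 CPM in B6-mtALR replicates 1 to 3, 20.9, 31.4, 22.9 and 23 CPM in replicates 4 to 7 and 31 and 29.9 CPM and 27.7 and 19.9 CPM in the B6-mtBPL mice of 3 and 4 months. Its lowest value was in B6-mtALR replicate 2 as well, and the lowest B6-mtBPL value in replicate 4.

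The sequences before the starts of 6 members are shown as examples. Each was picked together with a motif that it holds, so they are not typical of their groups. Each is the 250 bases before the start in the RefSeq annotation of GRCm38.p6, read 5′ to 3′ on the gene's strand, with the matches named below in capitals. Windows of 300 bases, 250 before and 50 after the start, were at hand for 42 of the 50 members and for 27025 genes, and motifs were searched on both strands.
Psma1: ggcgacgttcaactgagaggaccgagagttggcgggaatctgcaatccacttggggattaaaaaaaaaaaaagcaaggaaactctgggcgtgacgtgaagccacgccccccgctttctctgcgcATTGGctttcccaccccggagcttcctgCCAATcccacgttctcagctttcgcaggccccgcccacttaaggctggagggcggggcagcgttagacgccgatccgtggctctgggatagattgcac
Psmb6: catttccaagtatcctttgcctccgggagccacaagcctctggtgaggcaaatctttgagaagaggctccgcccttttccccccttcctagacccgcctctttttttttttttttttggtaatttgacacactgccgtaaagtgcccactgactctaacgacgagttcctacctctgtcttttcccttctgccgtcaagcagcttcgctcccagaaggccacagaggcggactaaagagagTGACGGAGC
Psmc6: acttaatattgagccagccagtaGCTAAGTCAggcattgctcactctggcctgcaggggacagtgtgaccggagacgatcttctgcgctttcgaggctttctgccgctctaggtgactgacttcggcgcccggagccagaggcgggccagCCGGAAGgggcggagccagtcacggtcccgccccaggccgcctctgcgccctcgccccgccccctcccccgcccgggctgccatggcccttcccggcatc
Psmd6: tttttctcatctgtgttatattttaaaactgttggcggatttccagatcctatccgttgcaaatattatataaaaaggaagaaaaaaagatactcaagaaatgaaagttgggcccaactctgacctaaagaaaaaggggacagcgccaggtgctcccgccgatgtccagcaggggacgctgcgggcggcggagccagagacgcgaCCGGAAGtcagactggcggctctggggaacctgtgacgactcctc
Psmb8: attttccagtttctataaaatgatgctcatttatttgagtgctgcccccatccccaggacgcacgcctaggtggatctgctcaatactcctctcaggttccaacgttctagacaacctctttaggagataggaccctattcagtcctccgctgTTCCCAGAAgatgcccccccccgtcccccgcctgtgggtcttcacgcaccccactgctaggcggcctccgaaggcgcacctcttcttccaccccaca
Psmb9: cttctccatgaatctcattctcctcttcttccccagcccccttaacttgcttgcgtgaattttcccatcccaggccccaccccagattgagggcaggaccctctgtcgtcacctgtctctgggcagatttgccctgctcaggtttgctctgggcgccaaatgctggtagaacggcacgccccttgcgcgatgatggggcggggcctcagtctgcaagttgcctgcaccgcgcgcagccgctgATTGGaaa
Psma1 (chr7:114276117-114276366, minus strand) holds 2 CCAAT boxes, 1 on each strand, whose first bases lie 126 and 98 bases before the start. Psmb6 (chr11:70525107-70525356, plus strand) holds TGACNNNGC, the core of the antioxidant response element that the product of Nfe2l1 can bind, from 9 bases before the start. Psmc6 (chr14:45329574-45329823, plus strand) holds this core on the other strand, from 227 bases before the start, and the ETS site CCGGAAG from 100 bases before it. Psmd6 (chr14:14120946-14121195, minus strand) holds CCGGAAG from 45 bases before the start. Psmb8 (chr17:34197945-34198194, plus strand) holds TTCNNNGAA, the GAS element of interferon-gamma signalling, from 97 bases before the start. Psmb9 (chr17:34187331-34187580, minus strand) holds a CCAAT box on the other strand from 8 bases before the start, and its window overlaps that of Tap1 on the plus strand.

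Over the members, the most frequent of these letters were those of the ETS site in the 19S particle. CCGGAAG was found in 9 of the 14 genes of the 19S particle with a window (64.3%), in 1 of 11 constitutive 20S genes (9.09%) and in 9.93% of all genes. CCAAT was found in 6 of 11 constitutive 20S genes (54.5%), in 4 of 14 genes of the 19S particle (28.6%) and in 41.1% of all genes. TGACNNNGC was found in 6 of the 42 members (14.3%), namely Psmb5, Psmb6, Psmc6, Psmd9, Psmd12 and Psme4, and in 14% of all genes. It was in 2 of 11 constitutive 20S genes (18.2%) and 2 of 14 genes of the 19S particle (14.3%). TTCNNNGAA was found in 3 of 42 members (7.14%) and 9.55% of all genes, and the interferon-stimulated response element, taken as GAAA, any 2 bases and GAAA again, in 5 of 42 (11.9%) and 3.99%. The members with this element were Psmb3, Psmd4, Psmd9, Psme1 and Psmg4. Among the 5 interferon-induced genes Psmb8, Psmb9, Psmb10, Psme1 and Psme2, TTCNNNGAA was found in 1 (Psmb8) and this element in 1 (Psme1). These matches describe letters only.

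The second comparison asked whether the members differed with age within a strain. Between 5 and 3 months in B6-mtALR (3 against 4 mice), 0 of 49 members passed edgeR's adjusted threshold, against 0.793% of all 13375 genes tested in either direction, and 0 had an unadjusted p under 0.05, against 10.1%. The median log2 difference was 0.053 (5 months over 3 months). The mice of 5 months were themselves far apart, with summed CPM of the 14 constitutive 20S genes of 1164 to 1505, a range that contained that of the 4 mice of 3 months (1172 to 1357). Psmb7 illustrates this, with 124.8, 151.1 and 109.6 CPM in the mice of 5 months. The 4 mice of 3 months also entered the comparison of the strains, so both comparisons share them.

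Between 4 and 3 months in B6-mtBPL (2 against 2 mice), 0 of 49 members passed the adjusted threshold, against 0.117% of 13623 genes, and 4 had an unadjusted p under 0.05, against 10.7%. These 4 were Psmb1, Psmb4, Psmc6 and Psmd9, with log2 differences of 0.27, 0.31, 0.36 and 0.38 in favour of 4 months, and they were chosen after their values were seen. The median difference of the members was 0.15. Both mice of 4 months lay above both of 3 months for 31 members, against 22.1% of all genes, and below for 3, against 20.9%. These shares over all genes are not matched for transcript length. The 31 included all 14 constitutive 20S genes, whose summed CPM was 1000 and 1036 at 3 months and 1181 and 1205 at 4 months. The length slopes also differed between these pairs of mice, and with the length correction the median was 0.088. With that correction, 1 member was higher and 1 lower at 4 months at an unadjusted edgeR p under 0.05. The immunoproteasome genes differed in the other direction, with log2 differences of -0.10 for Psmb8, -0.28 for Psmb9 and -0.31 for Psmb10, at edgeR adjusted p-values of 0.47 and above.

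Genes that work with the proteasome were followed as lists. Of 12 other proteasome components and factors tested, 0 passed the test and 10 had positive strain differences, with a median of 0.22. A positive value was found for 49.6% of all genes. Sem1, a small 19S subunit gene, was at 0.47 ± 0.12 (adjusted p = 0.065), Txnl1, a 19S-associated thioredoxin gene, at 0.54 ± 0.14 (adjusted p = 0.071), and Pomp, the 20S maturation factor gene, at 0.33 ± 0.12 (adjusted p = 0.16) and at -0.0021 after the length correction. Nfe2l1, the regulator of proteasome genes, measured 131.2, 139.4, 122.0 and 146.1 CPM in the B6-mtALR mice of 3 months against 126.4 and 133.6 CPM and 130.0 and 131.5 CPM in B6-mtBPL, a log2 fold change of 0.044 ± 0.11 (adjusted p = 0.84). None of the 5 genes of the list on transcription factors and their processing passed, and Ddi2, the protease gene that activates the product of Nfe2l1, was at -0.47 ± 0.11 (adjusted p = 0.064) with transcripts of 6623 bases on average, and at -0.13 after the length correction.

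Rps27a, which encodes ubiquitin fused to a ribosomal protein, was higher in B6-mtALR. It measured 241.1, 252.8, 225.8 and 211.1 CPM in B6-mtALR replicates 4 to 7, 132.6 and 116.6 CPM in the B6-mtBPL mice of 3 months and 170.8 and 164.2 CPM in those of 4 months, with a log2 fold change of 0.89 ± 0.12 (edgeR adjusted p = 0.021), and with the length correction it no longer passed (0.58, adjusted p = 0.11). Ubb, a polyubiquitin gene, was at 0.28 ± 0.11 and did not pass. Of the ubiquitin-activating enzyme genes, Uba1 was at -0.37 ± 0.10 (adjusted p = 0.085) and Uba6 at -0.28 ± 0.25 (adjusted p = 0.55). Among 10 genes of ubiquitin shuttles and the p97 segregase, 0 passed and the median was 0.054, with Ufd1 (0.34, adjusted p = 0.15) and Ubqln2 (-0.22, adjusted p = 0.3) at the lowest p-values.

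Antigen processing and interferon response genes are induced by interferons along with the immunoproteasome. Of 8 antigen processing genes, 5 had negative and 3 positive strain differences, and 1 passed the test, Nlrc5, the transactivator of MHC class I genes, at -0.82 ± 0.17 (edgeR adjusted p = 0.043), and the median was -0.26. Tap1 was at -0.31 ± 0.18 (adjusted p = 0.35) and Tap2, the neighbour of Psmb8, at -0.38 ± 0.13 (adjusted p = 0.14). The positive values were those of B2m (0.26), H2-K1 (0.12) and H2-D1 (0.10), which encode parts of MHC class I, and none of these passed. Of 12 interferon response genes, 1 passed, Gbp2, at -0.69 ± 0.14 (adjusted p = 0.041), and 11 were negative with a median of -0.29. Of all genes tested, 1.44% were called lower and 49.6% had a positive value. After the length correction neither Nlrc5 (-0.64, adjusted p = 0.18) nor Gbp2 (-0.66, adjusted p = 0.11) passed, and 11 of the 12 interferon response genes had negative values there as well. Without the age term 0 genes of either list passed, and the interferon response genes had a median of -0.12. With all 11 mice and age in the model, 0 passed and that median was -0.11. Within B6-mtBPL, all 12 were lower at 4 than at 3 months, with a median of -0.41. Both mice of 4 months lay below both of 3 months for 8 of the 12, against 20.9% of all genes.

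Marker lists of liver cell types were read as well, although in whole liver fewer cells of a type and less RNA per cell cannot be told apart. The hepatocyte markers were abundant in every library, with a summed level of 108334 to 126646 CPM in the B6-mtALR mice of 3 months and 107859 to 127103 CPM in B6-mtBPL. Of the 8, 6 had positive and 2 negative strain differences, with a median of 0.14. Without the age term, 3 were positive and 5 negative. The 1 marker called was Cps1, a long transcript, lower in B6-mtALR (-0.76 ± 0.17, edgeR adjusted p = 0.048). This call was lost with the length correction (-0.49, edgeR adjusted p = 0.22). Of all genes tested, 0.934% were called higher and 1.44% lower, and 49.6% had a positive value. The markers of leukocytes, cells in which the immunoproteasome is abundant, summed to 271.1 to 287.6 CPM and 237.7 to 355.3 CPM, with 0 of 15 called and 14 negative. Without the age term, 11 of these 15 were negative. Kupffer cell markers summed to 464.3 to 526.6 and 395.9 to 495.2 CPM, with 0 of 9 called. Sinusoidal endothelial markers summed to 229.7 to 265.8 against 311.2 to 409.5 CPM, with 3 of 6 called lower in B6-mtALR (Stab1, Stab2 and Kdr) and 2 of 6 positive without a call (Clec4g at 0.10 and Lyve1 at 0.16). With the length correction Stab1 passed (edgeR adjusted p = 0.047), and Stab2 (adjusted p = 0.082) and Kdr (adjusted p = 0.16) did not. Without the age term 1 of the 6 endothelial markers was called lower, and 0 with all 11 mice and age in the model. Stellate cell markers summed to 296.6 to 362.7 against 363.9 to 462.4 CPM. Of these 7, Reln was called lower in B6-mtALR (mean of 46.6 against 93.9 CPM), also with the length correction (edgeR adjusted p = 0.0496). Lrat (0.11) and Rgs5 (0.29) were positive without a call. Without the age term 1 of the 7 was called, and 0 with all 11 mice and age in the model. Cholangiocyte markers summed to 46.6 to 93.5 against 48.0 to 113.2 CPM, with 0 of 5 called. The part of these cell types in the values of the proteasome genes was not tested. The total estimated count ran from 18145815 (B6-mtALR replicate 7) to 25074045 (B6-mtALR replicate 4).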

How the data were processed

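Per the labels and the study's methods, the authors selected poly-A RNA, sequenced 75 bp single-end reads and quantified transcripts with kallisto 0.44.0 on mm10, and they deposited for each of the 11 mice an estimated count per transcript, not normalised, and a TPM value scaled for effective length. The transcript release is not given in the sources used here. By identifier, 95301 of 96626 transcripts (98.6%) matched GENCODE M21, holding at least 99.6% of the counts of each mouse. Counts were summed per gene and rounded. TPM values were summed per gene and used for levels only.

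Genes were kept by filterByExpr (minimum count 10, total 15), scaled by TMM and tested on age and strain in R 4.3.3, using edgeR 4.0.16 and its quasi-likelihood F-test, with the Benjamini-Hochberg method over all genes and 0.05 as the threshold; SEs came from the quasi-likelihood statistic. The length correction subtracted, per mouse, a lowess curve (span 0.3) of the log2 CPM deviation (prior count 0.5) on log10 mean transcript length. DESeq2 1.42.0, limma-trend (limma 3.58.1), RLE scaling, other sets of mice, the replicate block and leaving out each mouse were alternatives. The procedure was tested on simulated data. The length-corrected fits without age and with all 11 mice were chosen after seeing the data.

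The members, lists and rules for naming genes were chosen with earlier results of these data known. Named were the catalytic beta subunits with their counterparts, Psme1 to Psme4, Psmg1 to Psmg4, the highest and lowest strain difference of each ring and 19S class, members under the filter, and up to 5 called genes of each other list, or its 2 lowest p-values. Genes sharing sequence were found by counting 31-base words shared with other genes' transcripts. The labels call the libraries separate mice, and no batch or date is given in the labels, so batches could not be separated from the groups. Some genes of the other lists are not reported here.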

Additional observations from a re-analysis of the deposited data

Results flagged for a closer look

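Of the 44 groups of 4 mice examined (22 named genes in the B6-mtALR mice of 3 months and in B6-mtBPL), 1 held a mouse far from the others by Dixon's ratio at its 95% critical value. Psmb9 was at 13.96 CPM in B6-mtBPL replicate 4, against 20.3 to 20.9 CPM in the other 3 B6-mtBPL mice, a ratio of 0.90. Chance alone gives such a mouse in about 5% of groups. In the same mouse, Psmb8, Psmb10, Psme1 and Psme2 were below their means over the 11 mice, and Tap1 was at 19.9 CPM.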

How the results depend on the processing

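The strain difference of the proteasome genes had a positive median in every fit run. Its size depended on the length correction and, with or without that correction, on the age term and the set of mice. Between 0 and 3 members were called when a mouse of the strain comparison was left out, with 3 only without B6-mtALR replicate 6, and DESeq2 called 9 and limma-trend 1, where edgeR called 0. The median of the members was 0.23 and ran from 0.20 to 0.27 with a mouse left out. It moved to 0.081 with the length correction, to 0.066 with the replicate block and the length correction together, to 0.018 with the length correction and no age term and to 0.027 with the length correction in all 11 mice, with the last 2 of these fits chosen after seeing the data, and it was positive in all 22 alternatives. Without the length correction, the replicate block in all 11 mice gave 0.20 and called 0 members. The uncorrected fit with no age term gave 0.173, with 12 members higher at an unadjusted edgeR p under 0.05. In all 11 mice with age, the uncorrected fit gave 0.169, with 15 such members, against 21 in the main fit. Both called 0 members. Mice with the same number did not deviate together (correlations of -0.256, -0.192, 0.114 and -0.123), and nothing in the labels says that a number pairs them. Between 5 and 3 months in B6-mtALR, the median was 0.053 and ran from -0.0027 to 0.13 with a mouse left out, being negative only without replicate 2. Between 4 and 3 months in B6-mtBPL, it was 0.15, moved to 0.088 with the length correction and ran from 0.104 to 0.21 with a mouse left out, the highest without replicate 3. In both age comparisons, 0 members were called under every alternative run.

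The sign of some named genes turned. With the length correction, the log2 fold changes were -0.19 (Psmb8), -0.076 (Psme1), -0.062 (Psme2), -0.088 (Psmg2), -0.13 (Psmg4), -0.052 (Psmb2), -0.031 (Psmc3) and -0.016 (Psmd3). With the length correction and no age term, the log2 fold changes were -0.089 (Psmb8), -0.0997 (Psme1), -0.014 (Psme2), -0.052 (Psmg1), -0.0079 (Psmg2), -0.0303 (Psmg4), -0.0796 (Psmb2), -0.056 (Psmc3) and -0.0302 (Psmd3). With the length correction in all 11 mice, the log2 fold changes were -0.085 (Psmb8), -0.057 (Psme1), -0.072 (Psmg1), -0.018 (Psmg2), -0.079 (Psmb2), -0.048 (Psmc3) and -0.0203 (Psmd3). With the replicate block and the length correction, the log2 fold changes were -0.13 (Psmb8), -0.0024 (Psme3), -0.0598 (Psmg1), -0.068 (Psmg2), -0.056 (Psmb2) and -0.033 (Psmc3). In limma-trend, the log2 fold changes were -0.0087 (Psmb8) and -0.0023 (Psmd3). Without the age term, that of Psmd3 was -0.011. With the replicate block alone, that of Psme4 was -0.019. With a mouse left out, Psmd3 ran from -0.039 to 0.071, Psmb8 ran from -0.067 to 0.11 and Psma8 ran from -0.55 to 0.61. Of the 484 values of named genes under the alternatives, 43 changed sign, 10 passed the threshold that was missed before and 431 did neither. The cause of these changes was not tested. The strain term rests on 2 B6-mtBPL mice of 3 months, and the lowest counts, at most 22.3 per mouse on average, were those of Psmb11, Psmc3ip, Psma8 and Psme2b.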
